A study of Rattus norvegicus with 10 samples.

Results

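The miR-10, miR-99/100 and miR-125 families were followed in collateral vessels of male rats whose strain the labels spell Spraque-Dawley. The members were chosen by probe name, without starred forms and with earlier results of these data known. They are rno-miR-10a, rno-miR-10b, rno-miR-99a, rno-miR-99b, rno-miR-100, rno-miR-125a and rno-miR-125b, written below without the rat prefix. These are 7 of the 237 probes with a rat miRNA name on a multi-species array of 1107 probes, and 5 of the 7 were among the 93 that passed the filter on dim probes. The shunt group (n = 5) is tissue from the leg in which the femoral artery had been tied off and an arteriovenous shunt placed, an operation that raises fluid shear stress in the collateral arteries. The control group (n = 5) is tissue from the opposite, sham-operated leg of the same animals, so the control legs carried surgery and belonged to an animal with a shunt. Ages and the time after surgery are not stated. The design text calls the comparison growing against quiescent, and the question is which miRNAs differ between these vessels. Replicates 1 to 5 of both groups came from animals 27, 28, 30, 31 and 32, as the sample names in the labels show.

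Collateral arteries are small bypasses that widen when a main artery is closed, and their wall is made of endothelium and smooth muscle. A miRNA represses mRNAs that pair with its seed, a short stretch near its 5′ end. The miR-10 genes lie inside Hox gene clusters, the miR-99/100 family is known to repress the growth kinase mTOR, and miR-125 is the vertebrate counterpart of the worm miRNA lin-4. Members of the miR-99/100 and miR-125 families are transcribed together with let-7 miRNAs.

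The mature sequences show which members can share targets and which probes could share signal. Mature entries in the RefSeq table (build GRCr8) matched 6 of the 7 names; miR-99a is named only. Capitals mark the seed, bases 2 to 8 from the 5′ end.
miR-10a (chr10:81779730-81779752, plus strand): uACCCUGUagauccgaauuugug
miR-10b (chr3:80035886-80035907, plus strand): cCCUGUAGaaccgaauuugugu
miR-99b (chr1:67350070-67350091, plus strand): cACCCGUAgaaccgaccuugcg
miR-100 (chr8:50798307-50798328, plus strand): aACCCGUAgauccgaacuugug
miR-125a (chr1:67350689-67350712, plus strand): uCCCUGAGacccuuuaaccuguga
miR-125b (chr11:29732588-29732609, plus strand): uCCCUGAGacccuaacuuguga

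miR-99b and miR-100 share their seed, and these 2 were the only names with it among the 693 mature names in the table. miR-99a has no mature entry there, so this search could not find it. The Mir99a hairpin holds the same stretch at its bases 14 to 20, the position it has in the Mir100 hairpin. miR-125a and miR-125b share theirs with 1 other name, miR-351, which was detected in 1 of 10 shunt readings and in 0 of 10 control readings (a reading is 1 RNA on 1 array). miR-10a and miR-10b matched over 20 bases with 1 mismatch, but the table's miR-10b begins further along, so its bases 2 to 8 differ from those of miR-10a. miR-125a and miR-125b matched over 21 bases, with 1 mismatch and 2 gapped bases. miR-99b and miR-100 matched over 18 bases with 4 mismatches, and miR-10a and miR-100 over 19 with 3. Probes for sequences this close may share signal, so a value belongs to the probe with that name, and cross-hybridisation was not tested.

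In RefSeq's annotation Mir10a lies between Hoxb5 and Hoxb4, and Mir10b overlaps Hoxd4. Mir99b, Mirlet7e and Mir125a lie within 696 bases on chromosome 1, inside Spaca6. Mir100, Mirlet7a-2 and Mir125b1 span 51.8 kb on chromosome 8, and Mir99a, Mirlet7c1 and Mir125b2 span 45.3 kb on chromosome 11. The miR-125b probe therefore reads the product of both the chromosome 8 and the chromosome 11 gene.

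Every RNA had 1 reading with the dye AF665 and 1 with the dye AF546, on different arrays, which gives 10 readings per group over 10 arrays. A probe was detected in a reading, or above background, when 2 or more of its 3 spots rose over their surroundings by 2 SD of the background. Between 72.5 and 102 rat miRNAs were detected per shunt RNA, as a mean of its readings, against 36.5 to 84.5 per control RNA. To compare the readings of the same RNA, each miRNA's mean over all readings was first taken off. Between these deviations, r over the 93 tested miRNAs was 0.25 to 0.77, except in control 1 (r = -0.20) and control 3 (r = -0.028). Levels themselves, without that step, correlated between different RNAs with r of 0.85 to 0.99. Of the vessel wall markers, miR-143 of smooth muscle and miR-126 of endothelium were detected in every reading, and miR-145 in 9 shunt and 8 control readings. The striated muscle markers (4 listed, all detected) summed to 440 to 734 in linear intensity units in shunt RNAs and 345 to 527 in control RNAs, and their part in the results was not tested. The leukocyte markers (4 listed) summed to 289 to 306 in shunt and 276 to 324 in control RNAs. Of these, miR-150 was above background in 9 shunt and 10 control readings. miR-142-3p was so in 2 and 1, miR-223 in 1 and 1, and miR-142-5p in no reading. The sums include 50 added to each intensity before normalization. The red cell marker miR-451 was also above background in none.

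No member passed the test between the groups. The test was limma on 1 log2 level per RNA over all 93 miRNAs, two-sided, with an adjusted p under 0.05 as the threshold. It called 0 of the 5 tested members, against 1 of the 93 miRNAs (1.08%). At an unadjusted p under 0.05 there were 0 of the 5 members, against 18 of the 93 (19.4%), and the groups' values overlapped for all 5 tested members, while 5 of the 93 (5.38%) had groups that did not overlap. Of the tested members 3 read higher and 2 lower, with a median difference of 0.14 log2, beside 67 higher of 93 (72%) and a median of 0.12 over all 93. Of these members miR-10a and miR-100 were kept through their shunt readings alone, as were 32 of the 93 miRNAs, so the directions and the median, which is the value of miR-100, are a description only. In whole tissue, fewer cells of a type and less RNA per cell cannot be told apart.

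**Figure D1:**
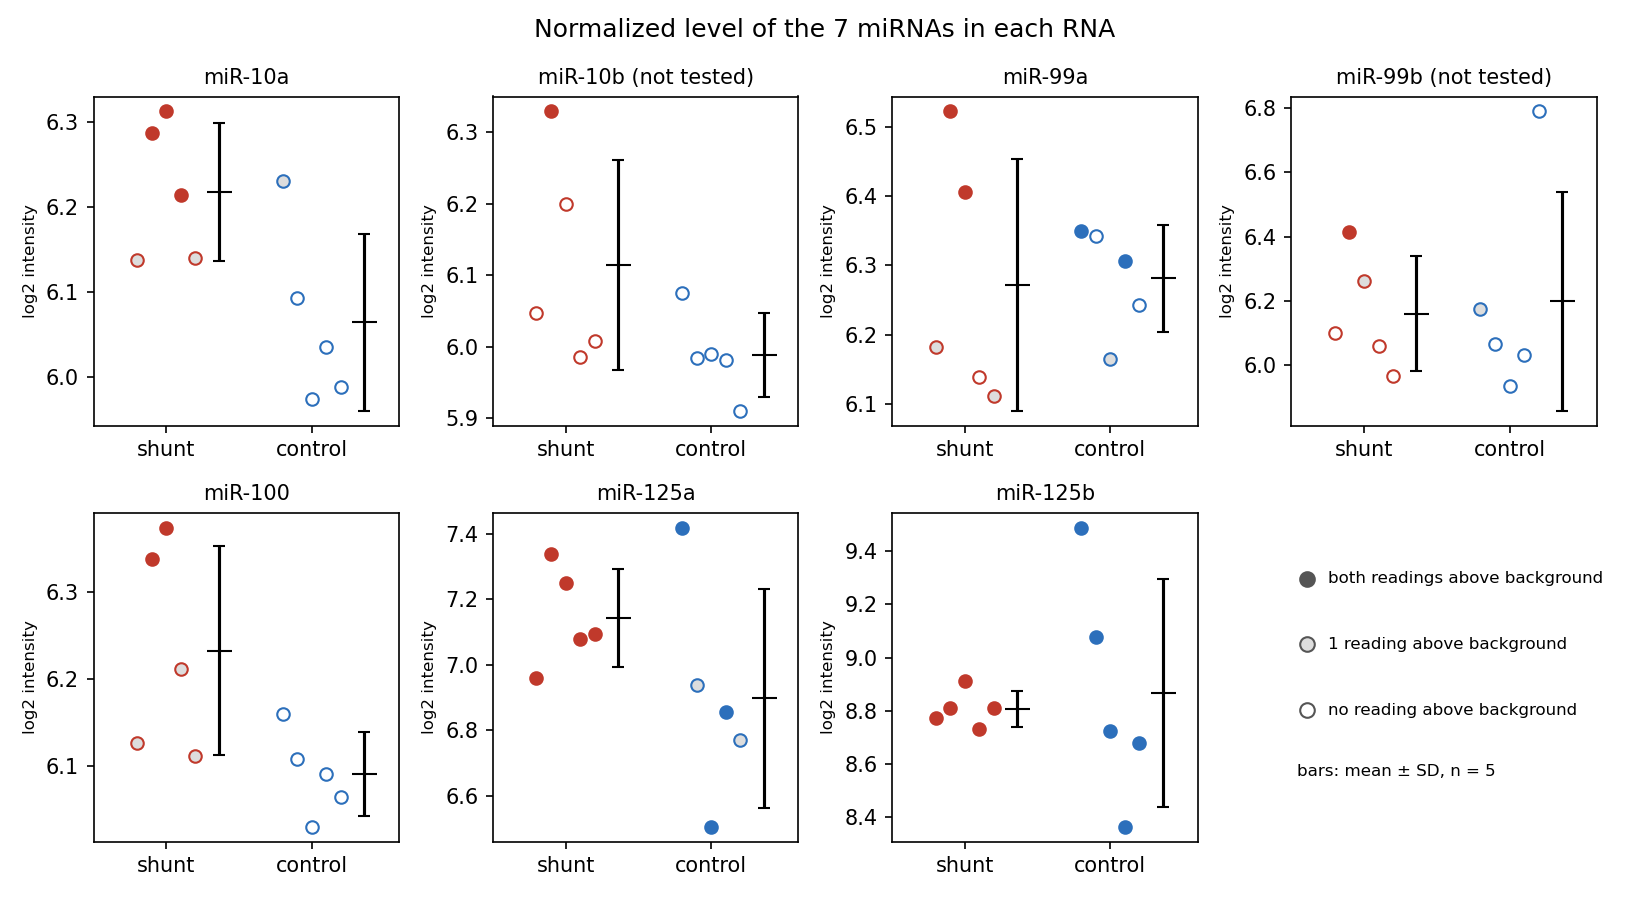
Normalized log2 intensity of each member in the 5 shunt RNAs (red, left) and the 5 control RNAs (blue, right) on its own axis, with the mean and SD beside the points; fill shows how many of the 2 readings were above background. The shunt points of miR-125b lie between 8.73 and 8.91, inside the control range of 8.36 to 9.49.

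miR-10a and miR-10b were dim. miR-10a, which restrains NF-kB signalling in endothelium of swine arteries and human endothelial cells, had log2 levels of 6.14, 6.29, 6.31, 6.21 and 6.14 in shunt 1 to 5, against 6.23, 6.09, 5.97, 6.04 and 5.99 in control 1 to 5. The shunt RNAs lay above 4 of the 5 controls, and control 1 lay inside the shunt range. Means were 6.22 ± 0.081 in shunt and 6.06 ± 0.10 in control RNAs (SD, n = 5 each), a difference of 0.15 log2 (SE 0.075, 95% interval -0.012 to 0.32, limma adjusted p = 0.258). Relative to the median of the 93 it is 0.034 log2, and since 9 of the 10 control readings were not above background, it is imprecise and no fold is given. In 4 of 5 animals the shunt leg read higher, animal 27 being the exception.

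The miR-10a signal was above background in 8 of 10 shunt readings but in only 1 of 10 control readings. All of those shunt readings came from arrays that held shunt RNA alone. On the arrays that held both groups, it was above background in control 1 but not in shunt 1, shunt 5 or control 5. Net intensity, foreground minus local background, had a median of 23 (2.33 to 46.3) in shunt readings and 9.67 (3.33 to 52.7) in control readings. The lowest shunt reading was shunt 5 on an array shared with control 1, where control 1 had the highest of all. Since 50 was added to each intensity before the logarithm, a log2 difference near this floor understates a change: without the added 50 the fitted difference of miR-10a was 0.45 log2 and also passed no threshold.

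miR-10b, whose relative in zebrafish promotes vessel growth by lowering the receptor flt1, was not tested because it was above background in only 2 of 10 shunt readings, both of shunt 2, and in 0 of 10 control readings. It read 6.05, 6.33, 6.20, 5.99 and 6.01 in shunt 1 to 5, against 6.08, 5.98, 5.99, 5.98 and 5.91 in control 1 to 5. The groups overlapped, and shunt 2 stood highest. Means were 6.11 ± 0.15 in shunt and 5.99 ± 0.059 in control RNAs (SD, n = 5 each). Each control reading bounds the level by the higher of the probe's own signal and the lowest signal above background. These bounds averaged 6.24, above the shunt mean, so no fold is given.

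**Figure D2:**
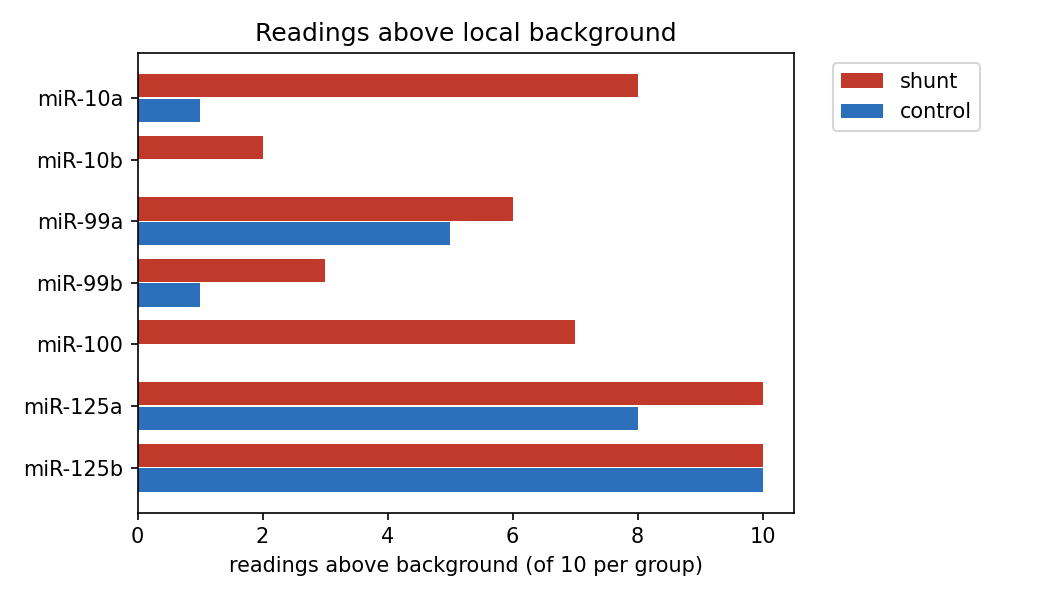
Number of readings above local background for each member, out of 10 in the shunt group (red, upper bar) and 10 in the control group (blue, lower bar). miR-10a (8 against 1) and miR-100 (7 against 0) were detected mainly in shunt readings, while miR-125b was detected in every reading. The shunt detections of miR-10a and miR-100 were all on arrays that held shunt RNA alone.

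Within the miR-99/100 family, miR-100 had the largest gap in detection. miR-100, which represses mTOR and whose inhibition in mice speeds the recovery of blood flow after femoral artery ligation, had levels of 6.13, 6.34, 6.37, 6.21 and 6.11 in shunt 1 to 5, against 6.16, 6.11, 6.03, 6.09 and 6.07 in control 1 to 5. Shunt 2, 3 and 4 lay above every control, and shunt 1 and 5 lay among the controls. It was above background in 7 of 10 shunt readings and 0 of 10 control readings, with median net intensities of 29.3 (4.67 to 47.3) and 15.3 (6.33 to 33). Of the 93 tested miRNAs, 9 were above background in no control reading, miR-100 among them. Since miR-100 was kept through its shunt readings alone, its gap in detection is a description only.

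The measured means of miR-100 were 6.23 ± 0.12 in shunt and 6.09 ± 0.048 in control RNAs (SD, n = 5 each), and differed by 0.14 log2 (SE 0.074, 95% interval -0.022 to 0.31, limma adjusted p = 0.269), or 0.022 relative to the median. The control values are not above background and only bound the level there. The mean of those bounds, 6.27, was above the shunt mean, so no fold can be stated. The shunt leg read higher in 4 of 5 animals, again with animal 27 as the exception.

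A direct comparison of the groups exists on 2 arrays. On the 2 arrays that held both groups, miR-100 read lower in shunt 1 than in control 5 by 0.26 log2, and higher in shunt 5 than in control 1 by 0.23. In both cases the RNA labelled with AF665 read higher, and over all 10 RNAs the AF665 reading of miR-100 was above the AF546 reading by 0.23 log2 on average, and in 9 of them, so neither gap can be told apart from a difference between the dyes. The mean over both arrays, in which the dyes balance, was -0.014, and for miR-10a it was -0.00062. On these 2 arrays miR-100 was above background in no reading, and miR-10a only in control 1. The other 8 arrays held shunt RNA alone or control RNA alone, so for miR-10a and miR-100 array and group cannot be told apart on them. The range of rat miRNAs above background per RNA was also higher for shunt RNAs, though the ranges given above overlap. On the 2 arrays with both groups the shunt RNAs did not have more. There 54 were above background in shunt 1 (AF546) against 55 in control 5 (AF665). On the other array there were 30 in shunt 5 (AF665) against 84 in control 1 (AF546).

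miR-99a, a repressor of mTOR in human cells, had levels of 6.18, 6.52, 6.41, 6.14 and 6.11 in shunt 1 to 5, against 6.35, 6.34, 6.17, 6.31 and 6.24 in control 1 to 5. The shunt RNAs took both the top and the bottom of the range, with shunt 2 and 3 above all controls and shunt 4 and 5 below all of them. Means were 6.27 ± 0.18 in shunt and 6.28 ± 0.077 in control RNAs (SD, n = 5 each), a difference of -0.0090 log2 (SE 0.094, 95% interval -0.22 to 0.20, limma adjusted p = 0.967). It was above background in 6 shunt and 5 control readings, and 2 of 5 animals read higher in the shunt leg. Net intensity had a median of 28 (1.00 to 71) in shunt and 23 (10.7 to 53) in control readings.

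miR-99b, which shares the miR-100 seed and lies beside Mir125a, was detected in 3 of 10 shunt readings and 1 of 10 control readings and was not tested. It read 6.10, 6.42, 6.26, 6.06 and 5.97 in shunt 1 to 5, against 6.18, 6.06, 5.94, 6.03 and 6.79 in control 1 to 5. Means were 6.16 ± 0.18 in shunt and 6.20 ± 0.34 in control RNAs (SD, n = 5 each). Control 5 stood far above the other controls, and it did so through 1 spot.

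That spot had a net intensity of 920 in the AF546 reading, beside 10 and 13 in the other spots of the same reading. Without it control 5 was at 5.99, the control mean was 6.04 ± 0.090 (SD, n = 5), and the difference turned to 0.12 log2, against -0.039 with it. The shunt leg was then higher in 3 of 5 animals. The sign for miR-99b also turned with the spot still included, to 0.072 without the added 50, 0.097 without between-array normalization and 0.010 without shunt 5. The value without the spot was computed after the spot was seen.

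The miR-125 family was detected in nearly every reading. miR-125b was above background in all 20 readings, as were 19 of the 93 miRNAs in all, and miR-125a in 10 shunt and 8 control readings. In the authors' deposited table, where rank 1 is the brightest of 1107 probes in an RNA, miR-125b ranked 11 to 13 in shunt and 7 to 20 in control RNAs. miR-125a ranked 46 to 66 in shunt and 31 to 88 in control RNAs. What the authors ranked is not stated, and a rank also depends on how well a probe binds.

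miR-125a, known to repress the growth factor receptor ERBB2 in human cells, had levels of 6.96, 7.34, 7.25, 7.08 and 7.09 in shunt 1 to 5, against 7.42, 6.94, 6.51, 6.85 and 6.77 in control 1 to 5. Apart from control 1, which was the highest RNA of all, every control lay below every shunt RNA. Means were 7.14 ± 0.15 in shunt and 6.90 ± 0.33 in control RNAs (SD, n = 5 each), a difference of 0.25 log2 (SE 0.15, 95% interval -0.085 to 0.58, limma adjusted p = 0.296). That is 1.19-fold, and 0.13 log2 relative to the median of the 93. The difference was 0.38 without control 1 (limma adjusted p = 0.130) and 0.15 without control 3 (limma adjusted p = 0.578). Levels of miR-125a in both readings of an RNA correlated with r = 0.90 over the 10 RNAs. For miR-10a, miR-99a, miR-100 and miR-125b this r was 0.71, 0.63, 0.37 and 0.51. Its median net intensity was 84 (19.3 to 280) in shunt and 52.8 (18.7 to 152) in control readings.

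miR-125b, known to repress ERBB2 in human cells like its seed mate, had levels of 8.77, 8.81, 8.91, 8.73 and 8.81 in shunt 1 to 5, against 9.49, 9.08, 8.73, 8.36 and 8.68 in control 1 to 5. The shunt RNAs, each a mean of 2 readings, lay close together and inside the control range. The 2 readings of an RNA were further apart, by a median of 0.33 log2 over the 10 RNAs. In shunt 1 they were 8.55 with AF665 and 8.99 with AF546, and in shunt 2 they were 8.99 and 8.63. Means were 8.81 ± 0.066 in shunt and 8.87 ± 0.43 in control RNAs (SD, n = 5 each), a difference of -0.060 log2 (SE 0.18, limma adjusted p = 0.870). As a fold this is 0.959, with a 95% interval on the log2 scale of -0.45 to 0.33, and relative to the median it is -0.18. The shunt leg was lower in animals 27 and 28, by 0.72 and 0.27, and higher in animals 30, 31 and 32, by 0.19, 0.37 and 0.13.

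Leaving out control 1 turned the sign for miR-125b, to a difference of 0.095 log2, and leaving out any other single RNA did not. Control 1 is also 1 of the 2 RNAs whose readings did not correlate over the 93 miRNAs once each miRNA's mean was taken off. Its own miR-125b readings, 9.31 with AF665 and 9.66 with AF546, were nevertheless both above every other reading. On the array with shunt 5 and control 1, miR-125b was lower in shunt 5 by 0.79, and on the array with shunt 1 and control 5 it was lower in shunt 1 by 0.018.

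**Figure D3:**
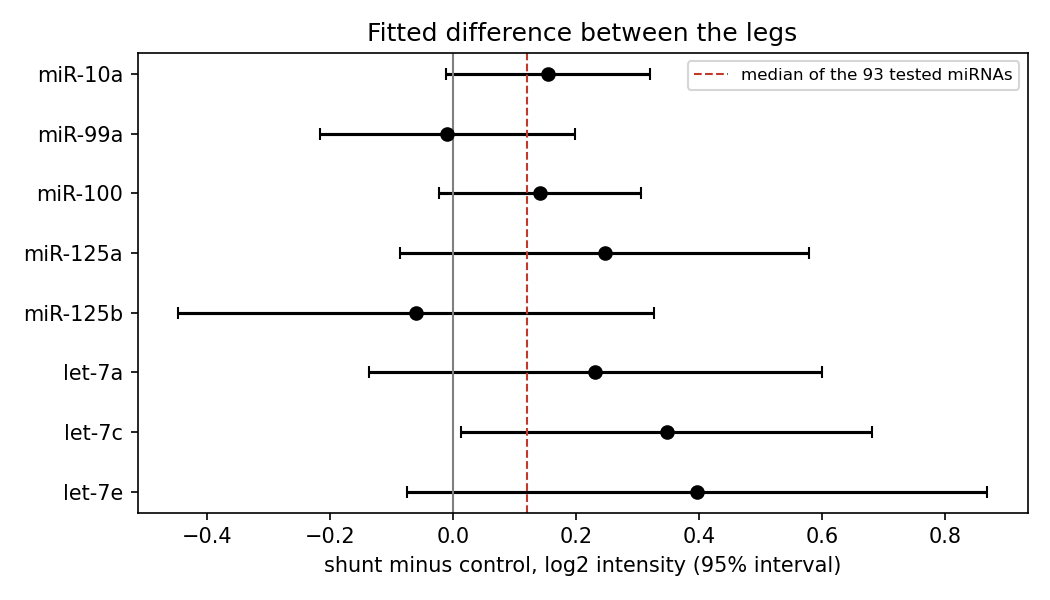
Fitted difference, shunt minus control, in log2 intensity with its 95% interval for the 5 tested members and the 3 let-7 miRNAs of the same gene clusters; the dashed line is the median of the 93 tested miRNAs, 0.12. Every member's interval includes 0, from 0.25 for miR-125a to -0.060 for miR-125b, and that of let-7c does not.

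The third spot of each probe, printed in blocks 17 to 24, read low on some arrays. For miR-125b the third spot differed from the mean of the other 2 spots by -0.58, -0.64, -0.98 and -0.90 log2 on the arrays of shunt 2 with shunt 3, shunt 3 with shunt 4, shunt 4 with shunt 5, and shunt 5 with control 1. On the other 6 arrays it differed by -0.17 to 0.26. The median of the 93 miRNAs moved the same way on those 4 arrays, by -0.19, -0.24, -0.44 and -0.25, and stayed between -0.062 and 0.052 on the rest.

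These 4 arrays carry 7 of the 10 shunt readings and 1 of the 10 control readings. Without the third spots, a setting chosen after the data were seen, the miR-125b difference was 0.077 log2 (limma adjusted p = 0.746), the opposite sign. The differences of miR-10a, miR-100 and miR-125a were then 0.20, 0.18 and 0.33 (limma adjusted p = 0.130, 0.149 and 0.174), and that of miR-99a was 0.042. No member passed there either, while 3 of the 93 did.

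**Figure D4:**
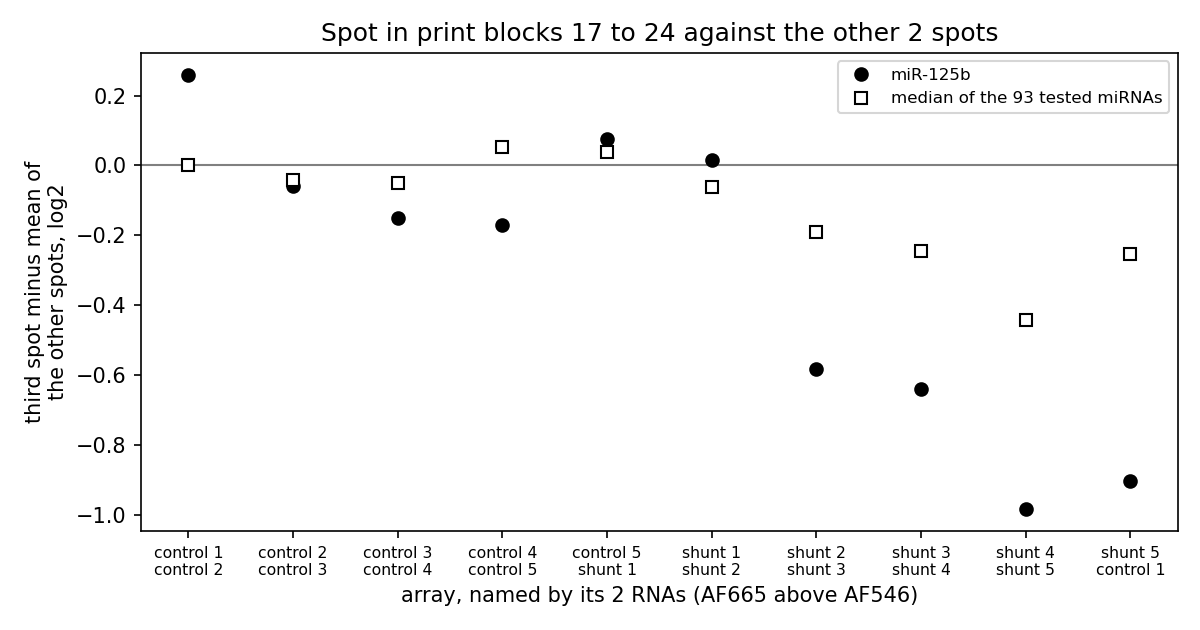
Log2 difference between the spot in print blocks 17 to 24 and the mean of the other 2 spots on each of the 10 arrays, for miR-125b (filled circles) and as the median of the 93 tested miRNAs (open squares). On the 4 arrays at the right, 7 of whose 8 readings are of shunt RNA, miR-125b ran from -0.58 to -0.98 and the median from -0.19 to -0.44.

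The authors' deposited table gave another picture of the miR-125 family. In it the shunt minus control difference of miR-125b was -0.91, 2.92, 1.31, -0.39 and 0.12 log2 in animals 27, 28, 30, 31 and 32, with the authors' p of 0.683, 1.84e-05, 0.00461, 0.883 and 0.436. For miR-125a the authors' deposited table gave -0.39, 1.77, 0.80, -0.20 and 0.020, with the authors' p of 0.997, 0.00313, 0.0808, 0.840 and 0.949. The test behind these p-values is not stated, and each compares 2 RNAs of 1 animal. The other members had no p under 0.05 in any animal of the authors' deposited table, with differences of -0.22 to 0.43. The large differences in animals 28 and 30 were not particular to the miR-125 family. There let-7a, let-7c and let-7e differed by 3.81, 4.12 and 3.63 in animal 28, and by 2.30, 2.98 and 2.14 in animal 30. In animal 31 their differences were -1.25, -0.93 and -1.16.

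The authors' values of miR-125b followed levels that had not been put on a common scale between arrays. The miR-125b column of the authors' table correlated over the 10 RNAs with r = 0.88 with levels taken without between-array normalization, and with r = 0.17 with the levels used here. For miR-100 the same correlations were 0.91 and 0.97. These share the same arrays and are descriptions. Without between-array normalization miR-125b read 9.03, 10.03, 9.72, 8.76 and 8.45 in shunt 1 to 5, against 8.95, 8.25, 8.33, 8.43 and 8.32 in control 1 to 5. The difference there was 0.74 log2 (limma adjusted p = 0.105), and 4 of the 5 members had an unadjusted p under 0.05 under that setting, as did 31 of the 93 miRNAs (33.3%).

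**Figure D5:**
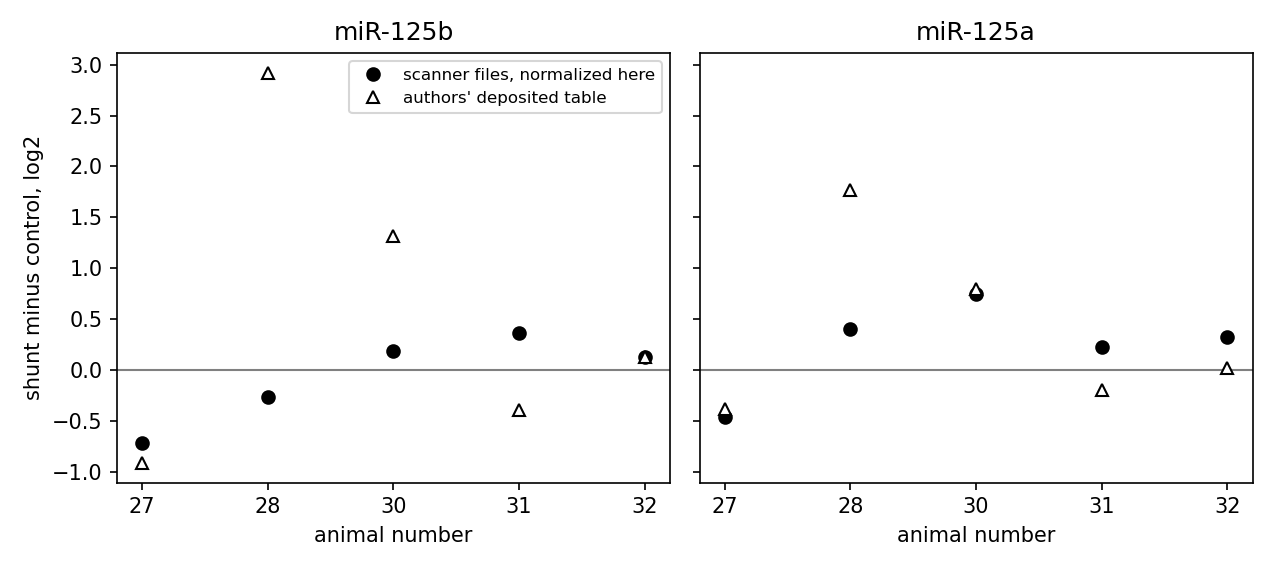
Difference, shunt minus control, in log2 for miR-125b (left) and miR-125a (right) in each of the 5 animals, from the scanner files as normalized here (circles) and from the authors' deposited table (triangles). In animal 28 the authors' table has 2.92 for miR-125b, where the normalized scanner values give -0.27.

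Levels of the members were compared with each other over the 10 RNAs. Those of miR-10a and miR-100 correlated with r = 0.92, and those of miR-10a and miR-125a with r = 0.91. The seed mates miR-125a and miR-125b correlated with r = 0.58, and miR-99a and miR-100, of 1 family, with r = 0.65. With each group centred on its mean, which takes out the group difference, r was 0.89 for miR-99a with miR-100, 0.85 for miR-10a with miR-100, 0.92 for miR-10a with miR-125a and 0.72 for miR-125a with miR-125b. All these RNAs share arrays with their neighbours, and the dim probes share a floor. Over the 10 RNAs miR-125b had the lowest correlations, 0.20 with miR-100 and 0.27 with miR-99a.

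The miRNAs whose levels were most like each member's are given as r over 10 RNAs, over the 88 tested miRNAs that are no members. For miR-10a they were miR-199a (0.89) and miR-133b (0.84), beside a median of 0.32 over the 88. For miR-100 they were miR-191 (0.92) and miR-199a (0.89), and for miR-125a miR-133b (0.83) and miR-199a (0.79). miR-99a was most like miR-27b (0.89) and miR-23b (0.83). miR-133b is a striated muscle marker, and it was above background in 9 shunt and 6 control readings. miR-125b was most like miR-150 (0.74), which is on the leukocyte marker list, and miR-30d (0.62), where its median over the 88 was -0.16.

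The let-7 miRNAs encoded beside the members read higher in the shunt group on average but did not pass with all 10 RNAs. let-7c, of the Mir99a cluster, averaged 11.16 ± 0.094 in shunt and 10.81 ± 0.36 in control RNAs (SD, n = 5 each), a difference of 0.35 log2 (SE 0.15, limma adjusted p = 0.235). let-7e, of the Mir99b cluster, averaged 9.16 ± 0.15 in shunt and 8.76 ± 0.52 in control RNAs (SD, n = 5 each), a difference of 0.40 (SE 0.21, limma adjusted p = 0.280). let-7a, of the Mir100 cluster, averaged 10.24 ± 0.29 in shunt and 10.01 ± 0.29 in control RNAs (SD, n = 5 each), a difference of 0.23 (SE 0.17, limma adjusted p = 0.363). Single RNAs moved these values. Without control 4, let-7e differed by 0.59 and passed (limma adjusted p = 0.0129). Under that setting 25 of the 93 miRNAs passed, against 1 with all 10 RNAs. Without control 3, let-7c differed by 0.19 and let-7a by 0.13. Without shunt 1 the let-7a difference was 0.12.

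Members and their let-7 neighbours were compared across the 10 RNAs. The r was 0.50 for miR-125a with let-7e, 0.39 for miR-100 with let-7a and 0.25 for miR-99a with let-7c. For miR-125b it was 0.10 with let-7a and 0.067 with let-7c. The let-7a and let-7c probes, like that of miR-125b, read the products of more than 1 gene.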

How the data were processed

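Per the file headers, the deposited scanner files give foreground and surrounding background intensity of 3321 spots in both dyes, not normalized. The deposited value table is on a log2 scale, with every row and column averaging 0; how the authors normalized it is not stated. For each animal, the authors' collapsed table lists a signed fold (a score, positive where the control was higher), a p-value and a rank (also a score). Its folds equal the value table within 6.61e-10 log2.

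Mean foreground and median background were corrected with normexp (offset 50, a floor of 5.64 log2), then loess (span 0.3, 4 iterations) and Aquantile were applied with statmod 1.5.0 and limma 3.58.1 under R 4.3.3. The 3 spots and then the 2 readings of an RNA were averaged. miRNAs above background in at least 0.5 of a group's readings were kept, 93 of 237. Shunt and control were compared by lmFit and eBayes, two-sided, with Benjamini-Hochberg adjustment over the 93. Bounds use, per reading, the higher of the probe's own and the lowest signal above background, with dyes balanced. Neighbouring RNAs share arrays, so p-values may be too small. Precision is limited by the 10 arrays. The limma step was tested on simulated levels with independent noise per RNA, which cannot check the effect of shared arrays. The normalization steps were tested by raising the signals of bright probes, and not of dim ones, in the shunt readings.

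Named miRNAs are the members, the let-7 miRNAs of their clusters, and per tested member the 2 other kept miRNAs most correlated with it. Members and lists were chosen with earlier results of these data known. Replicates pair by animal: deviations of paired RNAs correlated by -0.418, 0.00519, -0.189, -0.0468 and 0.337 for animals 27, 28, 30, 31 and 32. Marker lists covered vessel wall, striated muscle, leukocytes, red cells, liver (miR-122a detected in all 20 readings), nerve (miR-124a and miR-9, 1 shunt and 0 control readings each) and epithelium (summed level 266 to 298 in shunt and 251 to 276 in control RNAs). Of the epithelium markers, miR-200a was detected in 5 shunt and 0 control readings, miR-200b in 6 and 0, and miR-200c in 3 and 0. miR-141 was detected in no reading. None of the tested miRNAs on these lists passed the test. miR-142-3p, miR-142-5p, miR-223, miR-451, miR-124a, miR-9, miR-200c and miR-141 were too dim for the filter and were not tested. That leaves the red cell and nerve lists without a tested miRNA.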

Additional observations from a re-analysis of the deposited data

Results flagged for a closer look

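miR-99b in control 5 was at 6.79 log2, far from the other controls, which averaged 6.05 ± 0.099 (SD, n = 4). The gap to the nearest control was 0.720 of the group's range, above Dixon's 95% critical value for 5 samples, and it came with the single bright spot described in the results. let-7c in control 3 was at 10.2 log2, below the other controls, whose mean was 10.96 ± 0.11 (SD, n = 4), and its gap made up 0.735 of the range. Control 3 is also 1 of the RNAs whose readings did not correlate in their deviations from each miRNA's mean. In total 34 groups of 5 were examined in this way and 2 stood apart, where chance gives about 1 in 20.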

How the results depend on the processing

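No member passed the limma threshold of 0.05 under any setting, with a smallest adjusted p of 0.0719 (miR-10a, no between-array normalization). The count over all rat miRNAs, 1 as reported, was 2 with offset 0, median foreground, quantile normalization or all 221 probes past the filter; 3 with no background correction, ratios only, no filter on dim probes, the median of the spots or no spots from blocks 17 to 24; 4 with centring on the kept miRNAs (2 higher, 2 lower) or a trended robust prior; 8 with separate channels; and 18 unadjusted. It was 0 with median centring, no between-array normalization, the stricter filter, the deposited value table, or without control 1 and control 3. Paired by animal, with the replicate block, it was 0, and no member's call changed. Leaving out 1 RNA gave 0 to 25, the highest without control 4. In 6 of the 17 named miRNAs no alternative turned the sign.

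The sign turned for miR-99a with no between-array normalization (0.12), ratios only (0.068) and no spots from blocks 17 to 24 (0.042), and ranged from -0.071 to 0.031 leaving out 1 RNA. For miR-99b (-0.039), which was not tested, it turned with offset 0 (0.072), no background correction (0.0093), median foreground (0.090), no between-array normalization (0.097), ratios only (0.68), the 2 arrays with both groups (0.0058), the value table (0.14) and the median of the spots (0.13), and ranged from -0.10 to 0.11 leaving out 1 RNA. For miR-125b it turned with no between-array normalization (0.74), the value table (0.61), the median of the spots (0.021), no spots from blocks 17 to 24 (0.077) and without control 1 and control 3 (0.10), and ranged from -0.19 to 0.095 leaving out 1 RNA. On the 2 arrays with both groups it turned for miR-10a (-0.00062), miR-100 (-0.014), miR-125a (-0.083), miR-199a (-0.022), miR-23b (-0.28) and miR-150 (0.00050). It also turned with no between-array normalization for miR-27b (0.24), miR-150 (0.23) and miR-30d (0.16); with the value table for miR-27b (0.075), miR-150 (0.077) and miR-30d (0.011); with quantile normalization for miR-27b (0.0098) and miR-150 (0.027); with centring for miR-199a (-0.0041) and miR-23b (-0.091); with ratios only for miR-23b (-0.31) and miR-150 (0.21); with offset 0 (-0.011), median centring (-0.039) and without control 1 and control 3 (-0.0059) for miR-23b; with the median of the spots for miR-150 (0.026); and with no spots from blocks 17 to 24 for miR-27b (0.049) and miR-150 (0.10). Leaving out 1 RNA, the range was -0.081 to 0.022 for miR-27b, -0.031 to 0.089 for miR-23b and -0.085 to 0.060 for miR-150. The cause was not tested. Seeing the data came before the choice of the settings on spots and of leaving out control 1 and control 3 together. A slide or scan batch block was not run, since the files give no such batch. Dim signal limits miR-10a, miR-10b, miR-99a, miR-99b and miR-100, whose levels lay near the floor.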
